A study of Mus musculus with 6 samples.

Results

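Cells with U1 blocked were compared with untreated cells through 4 of the 6 libraries of a 3′ end sequencing series, chosen by their titles. There were 2 libraries from untreated V6.5 cells and 2 from V6.5 cells given an antisense morpholino oligonucleotide (AMO) against U1. The remaining 2 libraries, from V6.5 cells given a scrambled AMO, were set beside them as a measure of what delivery does without targeting U1. They also entered the statistical fit of all 6 libraries, and so bear on which changes passed the test. V6.5 is a mouse embryonic stem cell line of C57BL/6-129 background, and all groups shared the line, the standard culture conditions, the selection of poly(A) RNA and the library protocol. Untreated cells received no AMO of any kind, so the comparison holds both delivery and the block of U1. The AMO conditions followed an earlier published protocol, and the sources used here give neither dose nor time. The design text calls the libraries biological replicates of 1 line. The cell type label was not checked against marker genes here, because no gene annotation of the files' genome build, mm9, was used. Clusters are therefore given by position and not by gene.

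U1 is the small nuclear ribonucleoprotein that base-pairs with 5′ splice sites. Apart from splicing, it is known to keep nascent transcripts from being cleaved and polyadenylated early, at poly(A) signals that lie mostly in introns, and an AMO that covers the 5′ end of the U1 RNA removes this protection. Cleavage is directed by a hexamer a short distance upstream of the cut, most often AATAAA, with ATTAAA as the commonest variant, and this hexamer is bound by the cleavage and polyadenylation specificity factor. The title of the series poses the question of promoter directionality, since transcription leaves many promoters on both strands and both arms can end at such signals.

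Each deposited position is the end of a polyadenylated RNA, with its strand, read count and hexamer. Positions of 1 strand within 24 nt of each other form a cluster, and levels are CPM, the reads of a cluster scaled to the total of its library, computed here. The untreated libraries held 38569397 and 60473882 reads (replicates 1 and 2), the U1 AMO libraries 15752080 and 57925358, and the scrambled AMO libraries 26846406 and 62257923. U1 AMO replicate 1 was thus the shallowest. Read names showed that each untreated library came from a sequencing run of its own, whereas the U1 AMO and scrambled AMO libraries with the same number shared a run. Run and treatment cannot be told apart in the comparison with untreated cells. Fewer cells and less RNA per cell cannot be told apart in such bulk libraries. Counts are PCR reads without molecular identifiers, so intervals and floors cover counting error only.

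Many cleavage clusters that were close to silent in untreated cells stood higher under the U1 AMO, and far fewer clusters stood lower. Of 80049 clusters tested, 3512 were higher (4.39%) and 404 lower (0.505%) by the quasi-likelihood test of edgeR at an adjusted p under 0.05. The raised clusters together took 0.349% and 0.322% of reads in the untreated libraries, 1.27% and 1.05% under the scrambled AMO, and 3.27% and 2.62% under the U1 AMO. Both U1 AMO shares were above both untreated ones, on whose reads the clusters were called, and the scrambled AMO shares lay between. Their median level was 0 CPM in both untreated libraries, 0.112 and 0.0803 under the scrambled AMO, and 2.48 and 1.84 under the U1 AMO. In 1817 of the 3512 no untreated read was counted, against 5333 of all 80049 tested. Clusters without untreated reads passed the filter on low counts through the AMO libraries alone, so nothing is read from their number. With untreated levels held at no fewer than 3 counts over the group, the median rise was 36.7-fold, a floor that 2412 clusters did not pass. The median log2 fold change was 7.83 over the raised clusters and 0.23 over all tested. With the scrambled AMO, the median log2 fold change was 2.40 over the raised clusters and 0.15 over all tested, a fitted value that depends on the prior count where both groups are near 0.

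The number of calls rested on the fit and on single libraries. A block for the replicate number, added to the fit of all 6 libraries, left 0 calls, with unadjusted p under 0.05 at 16724 clusters, and the named clusters then had adjusted p of 0.0506 to 0.116 (edgeR). Higher clusters numbered 7739 without untreated replicate 1, 1721 without untreated replicate 2 and 1003 without U1 AMO replicate 2, against 2971 without U1 AMO replicate 1. Of the 3512, 3372, 1476, 993 and 2608 were among these. In a fit of the 4 compared libraries alone 1363 were higher, and DESeq2 called 8000. The scrambled AMO, compared with the same untreated libraries, gave 0 calls in either direction by edgeR (0.0% of 80049), with 10490 clusters at an unadjusted p under 0.05, and 2181 calls by DESeq2. Since both comparisons share the untreated libraries, their values are given side by side and not correlated.

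In the classes of larger rise, the scrambled AMO libraries stood at a smaller part of the U1 AMO level. The 54 raised clusters with a rise under 4-fold were already abundant, with untreated medians of 11.8 and 13.4 CPM, and with 35.2 and 34.0 under the scrambled AMO and 49.9 and 36.6 under the U1 AMO. In these, the scrambled AMO medians were close to those of the U1 AMO. The 593 clusters with rises of 4 to 16-fold had medians of 0.467 and 0.446, 1.42 and 1.33, and 4.89 and 4.14 CPM in the same order. The 155 clusters with rises of at least 256-fold had medians of 0 in both untreated libraries, 0.112 and 0.0642 CPM under the scrambled AMO, and 15.5 and 12.6 CPM under the U1 AMO. The classes were cut on the same U1 AMO and untreated reads, so the order of those groups is fixed by the classes. The scrambled AMO level was not used in the cut, but the U1 AMO level was. A constant ratio of scrambled AMO to untreated levels would also give a smaller part in the larger classes, so nothing is read from that order.

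**Figure D1:**
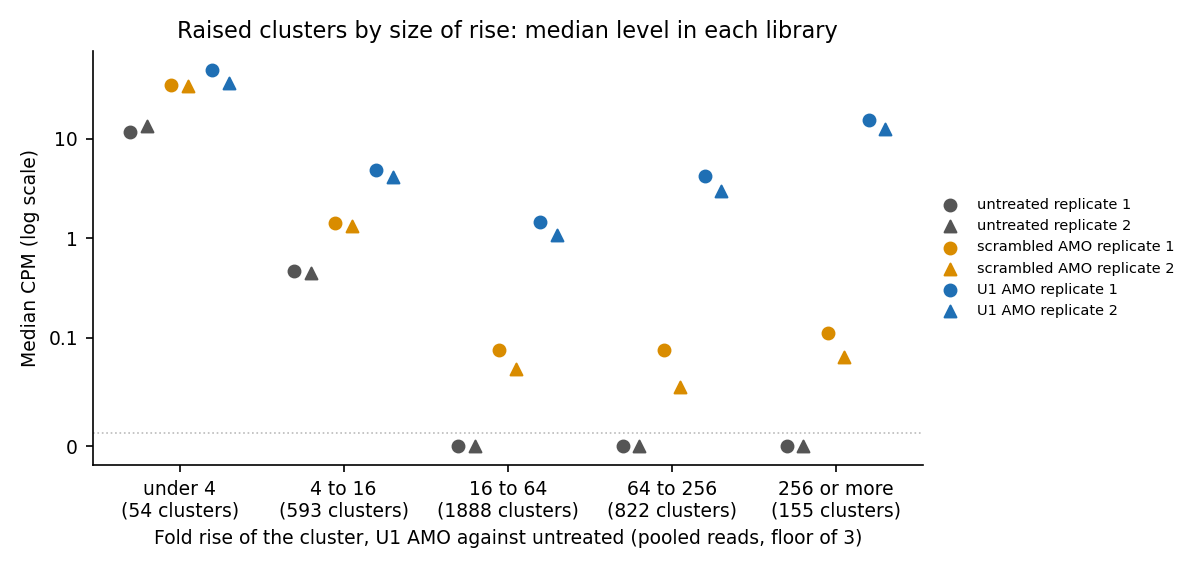
Median CPM (log scale, with 0 drawn at the bottom) of the raised clusters in each of the 6 libraries, by size of the rise of U1 AMO over untreated from pooled reads with a floor of 3; points are libraries, circles replicate 1 and triangles replicate 2. In the class under 4-fold the scrambled AMO libraries stand near the U1 AMO libraries, and in the classes of 16-fold and more they stay at or under 0.112 CPM while the U1 AMO libraries reach 1.09 to 15.5.

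The commonest hexamer of the raised clusters was also that of all clusters tested. Each deposited position carries a hexamer, so the presence of one says nothing about the raised clusters. At the strongest position, AATAAA was found in 51.3% and ATTAAA in 21.8% of the 3512, against 49.3% and 16.6% of all clusters tested. A run of A, which can mark priming inside an RNA in place of a tail, stood at 24 (0.683%), against 3.85% of all tested. Seen the other way, 5.76% of clusters with ATTAAA, 4.56% with AATAAA, 5.51% with AGTAAA, 2.77% with TATAAA and 0.780% with AAAAAA were raised. The median spacing from hexamer to cut was 22 nt in raised clusters and 21 nt in all tested. The raised clusters had a median width of 19 nt and 12 cut positions, against 17 nt and 10 positions for all tested. These shares are descriptions, since clusters are not replicates.

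Chromosome X held 62 raised clusters of 2774 tested (2.24%), below every autosome, where the shares ran from 3.62% on chromosome 7 to 5.33% on chromosome 12. Mitochondrial RNA stood at the other end, with 11 of 132 (8.33%). The mitochondrial share of all reads was 0.617% and 0.352% in untreated cells, 1.60% and 0.853% under the scrambled AMO, and 2.15% and 1.22% under the U1 AMO. Both AMO groups were above both untreated libraries (exact permutation p = 0.33 for U1 AMO against untreated, two-sided, the smallest that 2 libraries against 2 allow). Without chromosome M, 3439 clusters were higher and 415 lower.

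The 10 largest rises among calls averaging 20 CPM or more in the 4 libraries went from near 0 to 36.7 to 83.4 CPM under the U1 AMO, while the scrambled AMO libraries stayed between 0 and 0.335 CPM. Of these 10 clusters 6 had no untreated read in either library, and the untreated levels of the others were at most 0.0778 CPM. Their hexamers are shown as deposited. Each deposited position carries one, and whether it was the signal used at the new end was not tested. AATAAA stood at 6, ATTAAA at 3 and a variant at 1 (mm9, strand in brackets, signal in capitals as deposited):
chr14:52700835-52700854 (minus): AATAAA
chr2:128929801-128929811 (plus): ATTAAA
chr4:153353347-153353374 (plus): ATTAAA
chr10:88288888-88288904 (minus): AATATA
chr12:21419256-21419269 (minus): AATAAA
chr11:69391758-69391782 (minus): AATAAA
chr11:114530876-114530900 (plus): ATTAAA
chr7:97125102-97125174 (minus): AATAAA
chr15:36717000-36717042 (minus): AATAAA
chr5:143723224-143723247 (plus): AATAAA

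The cluster with the highest log2 fold change, chr14:52700835-52700854, had 0 CPM in both untreated libraries, 0.298 and 0.112 under the scrambled AMO, and 67.4 and 64.9 under the U1 AMO. The groups did not overlap, and the rise was at least 2160-fold against a floor of 3 counts over the untreated group (edgeR adjusted p = 0.00861). The next strong end downstream on that strand, 6.72 kb away, had 171 and 187 CPM untreated, 204 and 185 under the scrambled AMO, and 187 and 212 under the U1 AMO. The groups overlapped there, and the new end came to 26.4% and 23.5% of the reads of both ends in the U1 AMO libraries. At chr2:128929801-128929811 the levels were 0 and 0, 0.0745 and 0.0642, and 53.5 and 63.7 CPM in the same order, a rise of at least 2030-fold (edgeR adjusted p = 0.00861). This end outweighed the downstream one at 30.0 kb, which had 41.2 and 34.4 CPM under the U1 AMO, and took 56.5% and 64.9% of both.

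At chr12:21419256-21419269 the U1 AMO libraries had 41.8 and 45.0 CPM, the scrambled AMO libraries 0.261 and 0.128 and the untreated libraries none, a rise of at least 1463-fold. The new end took 45.7% and 49.0% of the reads it shared with an end 23.3 kb downstream. At chr11:69391758-69391782, silent in untreated cells and at 0 and 0.0161 CPM under the scrambled AMO, the U1 AMO libraries had 50.2 and 36.7 CPM. The share there was 63.6% and 35.8% against an end 16.5 kb downstream, so the replicates differed more in share than in level. The clusters at chr4:153353347-153353374 and chr10:88288888-88288904 rose at least 1869-fold and 1413-fold. The latter was the 1 cluster of the 10 without a stronger untreated end within 50 kb downstream.

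Of the other 4, chr15:36717000-36717042 had the closest replicates, with 0.0259 and 0.0331 CPM untreated, 0.223 and 0.0803 under the scrambled AMO, and 60.2 and 59.2 under the U1 AMO. From 3 untreated reads in all, the ratio was 1962 (95% counting interval 671 to 9516), the log2 fold change 10.79 ± 0.62 (SE) and the adjusted p in edgeR 0.00861. At chr11:114530876-114530900, with 1 untreated read, the U1 AMO libraries had 79.9 and 38.4 CPM, a ratio of 4679 (839 to 184881). The end 2.757 kb downstream of it also stood higher, at 44.4 and 184 CPM untreated, 394 and 280 under the scrambled AMO, and 405 and 438 under the U1 AMO, with a log2 fold change of 1.88 (edgeR adjusted p = 0.108). The ratios at chr7:97125102-97125174 and chr5:143723224-143723247 were 2263 (774 to 10977) and 1609 (550 to 7806). The untreated reads of both clusters, and of chr11:114530876-114530900, were all in replicate 1, so these ratios rest on that library. Without untreated replicate 2 the log2 fold changes of these 3 clusters went from 10.99, 10.67 and 12.05 to 9.72, 9.40 and 10.85. All 10 kept their call with any single library left out and in the fit of the 4 compared libraries alone, and none kept it with the replicate block. Under the scrambled AMO the lowest adjusted p among the 30 clusters named here was 0.266 (edgeR).

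**Figure D2:**
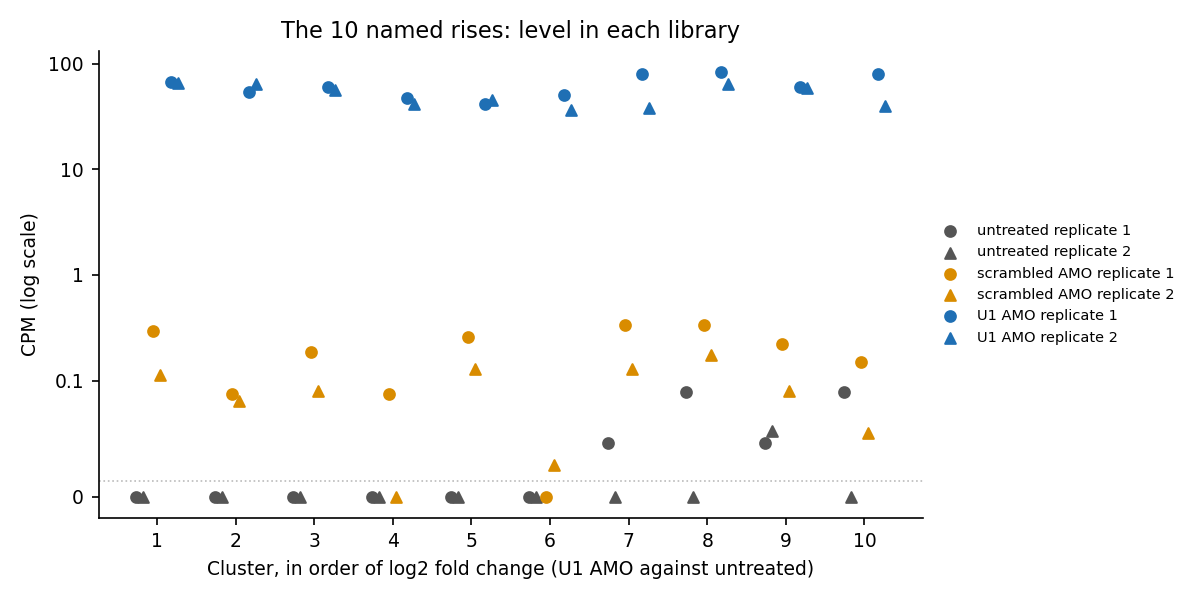
CPM (log scale, with 0 drawn at the bottom) of the 10 largest rises in each library, in order of log2 fold change; circles are replicate 1 and triangles replicate 2. The U1 AMO libraries lie between 36.7 and 83.4 CPM, all scrambled AMO libraries at or below 0.335 and all untreated libraries at or below 0.0778.

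Most raised clusters had an established end downstream on their strand. Within 50 kb downstream, 60.5% of the 3512 had a cluster of at least 10 CPM in untreated cells, whatever the level of the cluster itself, against 39.1% of all tested and 23.5% of the lowered. These shares are descriptions, and the clusters of all tested were not chosen to be as low in untreated cells as the raised ones. A downstream partner was defined as the strongest same-strand cluster within 50 kb downstream that had at least 1 CPM in untreated cells and more than the cluster itself. Of the 3512 raised clusters 2449 (69.7%) had one, against 40306 of all 80049 tested (50.4%) and 69 of the 404 lowered ones (17.1%). The median distance was 17.3 kb (quartiles 8.37 and 30.3 kb), against 10.5 kb over all tested. Raised clusters are near 0 in untreated cells by their choice, so they meet the condition on level more easily than the lowered clusters or all tested, and nothing is read from these shares. With that condition left out, 70.6%, 57.04% and 49.0% of raised, all tested and lowered clusters had a cluster of at least 1 CPM in that range. Among the 977 raised at least 64-fold, 742 (75.9%) had a partner.

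Few of the partners themselves passed the test. Over 1694 distinct partners of raised clusters the median log2 fold change was -0.24, against -0.38 for the partners of all clusters tested, with 24 higher and 20 lower in edgeR, against 106 higher and 299 lower of the 12230 tested partners of all clusters. Of these partners 471 had 2 or more raised clusters upstream. The partner with the most, chosen after its values were seen, was chr5:115691764-115691837 (minus), with 10 raised clusters 2.38 to 30 kb upstream. Those 10 summed to 0.181 and 0.331 CPM untreated, 0.410 and 0.337 under the scrambled AMO, and 34.6 and 31.7 under the U1 AMO. The partner had 368 and 308 CPM untreated, 275 and 352 under the scrambled AMO, and 237 and 343 under the U1 AMO, groups that overlapped. The strongest of the 10, at chr5:115720174-115720225 with 28.4 kb to the partner, carried AATAAA and had 13.9 and 12.4 CPM under the U1 AMO against 22 untreated reads in all.

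On the other strand, head-to-head neighbours bear on promoter arms, since a pair of ends that point away from each other can flank a promoter. A head-to-head neighbour, a tested cluster of the other strand up to 5 kb away on its 5′ side, was found at 694 raised clusters (19.8%), against 12.7% of all tested and 9.90% of the lowered. Within 2 kb the shares were 6.49%, 6.57% and 6.93%, so the difference was seen at the wider limit and not at the narrower one. Tested neighbours include clusters that passed the filter on low counts through the AMO libraries alone, so nothing is read from these shares. Of 8970 such pairs of tested clusters within 5 kb, 1101 had a raised arm, and in 56 both arms were raised. These 56 were 0.624% of the 8970 and 5.09% of the 1101, and whether arms rose together was not tested. The pair shown, chosen after its values were seen, lay on chromosome 1 with 2.898 kb between the arms. The minus-strand arm, chr1:59819010-59819061, had 1.11 and 0.943 CPM untreated, 1.19 and 1.06 under the scrambled AMO, and 14.9 and 5.09 under the U1 AMO. Its log2 fold change was 3.17 ± 0.58 (SE; edgeR adjusted p = 0.0360). The plus-strand arm, chr1:59821942-59821972, rose from 0.0778 and 0.0331 CPM, with 0.112 and 0.128 under the scrambled AMO, to 15.7 and 8.13. There the log2 fold change was 7.68 ± 0.69 (SE; edgeR adjusted p = 0.00969). Both arms carried AATAAA.

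The same shift was measured locus by locus without calling single clusters. Anchors were defined as the 6433 clusters averaging 10 CPM or more in the 6 libraries that had no stronger neighbour on their strand for 50 kb, and reads were summed 2 to 50 kb upstream and downstream of each. Windows of different anchors can overlap. Of 5801 upstream windows tested, 1621 were higher under the U1 AMO (27.9%) and 162 lower (2.79%), against 25 (0.431%) and 4 (0.069%) under the scrambled AMO. On the downstream side 344 of 4927 were higher (6.98%) and 71 lower (1.44%), against 0 and 0 under the scrambled AMO (0.0%; 819 at an unadjusted p under 0.05; all edgeR). The median log2 fold change over all windows was 0.77 upstream and 0.29 downstream, and 0.32 and 0.10 under the scrambled AMO.

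The raised upstream windows had medians of 0.467 and 0.413 CPM untreated, 1.08 and 0.803 under the scrambled AMO, and 4.32 and 3.38 under the U1 AMO. The median log2 fold change of the anchors of these windows was -0.23, against -0.31 for the anchors of all upstream windows, with 20 higher and 31 lower of 1621, against 63 higher and 170 lower of the 5801. Over 4558 anchors with both windows, the median log2 ratio of upstream to downstream reads (0.1 CPM added to each) was 0.02 and -0.07 in untreated cells, 0.25 and 0.20 under the scrambled AMO, and 0.55 and 0.59 under the U1 AMO. The groups did not overlap. The difference between the means of U1 AMO and untreated was 0.60 (exact permutation p = 0.33, two-sided, the smallest possible).

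Without U1 AMO replicate 1 the upstream windows gave 1114 higher and 13 lower, and without U1 AMO replicate 2 1046 and 35. Lower upstream windows fell to 75 without scrambled AMO replicate 1. The downstream counts moved further. Without untreated replicate 1 there were 648 higher and 105 lower downstream windows, and without untreated replicate 2 there were 181 and 43. Leaving out U1 AMO replicate 1 or 2 gave 162 and 119 higher and 0 lower in both cases, with 890 and 919 windows at an unadjusted p under 0.05 by edgeR. Without scrambled AMO replicates 1 and 2 the lower downstream windows numbered 28 and 46.

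**Figure D3:**
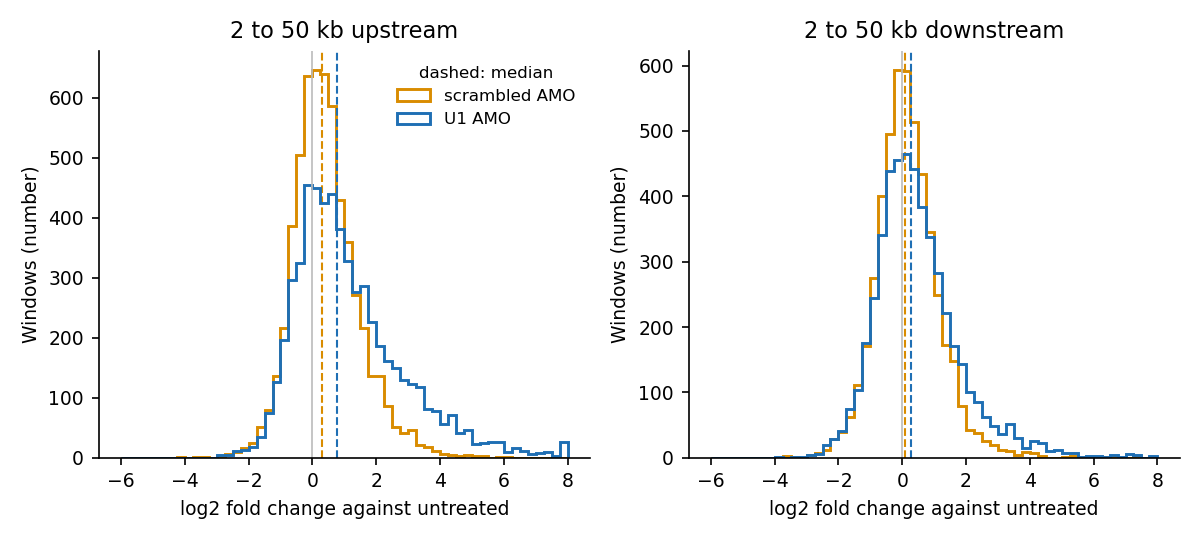
Number of windows by log2 fold change against untreated cells, 2 to 50 kb upstream (left, 5801 windows) and downstream (right, 4927 windows) of anchors, for the U1 AMO and the scrambled AMO; dashed lines are medians, and the last bar holds all larger values. The U1 AMO median is 0.77 upstream and 0.29 downstream, with a long right tail upstream, and the scrambled AMO medians are 0.32 and 0.10.

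The 5 upstream windows with the largest rise, of 176 called with at least 20 CPM under the U1 AMO, rose from at most 17 untreated reads in both libraries together. Upstream of chr13:119169012-119169131 (minus) the windows held 2 and 1 reads untreated, 7 and 10 under the scrambled AMO, and 753 and 1258 under the U1 AMO. The log2 fold change was 9.93 ± 0.68 (SE; edgeR adjusted p = 0.00021) and the ratio 901 (95% counting interval 308 to 4373). A single cluster with AATAAA, 5.079 kb from the anchor, gave 96.0% of the U1 AMO reads. The groups overlapped at the anchor, with 146 and 125 CPM untreated, 162 and 147 under the scrambled AMO, and 116 and 144 under the U1 AMO.

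The window upstream of chr2:28681620-28681696 (minus) was of another kind, with 5 raised clusters, of which the strongest gave 35.2% of the U1 AMO reads. It held 2 and 0 reads untreated, 6 and 11 under the scrambled AMO, and 403 and 1187 under the U1 AMO. Upstream of chr1:123450395-123450420 (minus), chr15:36700506-36700538 (minus) and chr10:111423136-111423200 (plus), 3, 4 and 4 raised clusters were found, and the strongest gave 88.8%, 91.3% and 77.8%. Their log2 fold changes were 9.09, 8.82 and 8.01. The chr15 window holds the named cluster at chr15:36717000-36717042, and its anchor had 864 and 666 CPM untreated, 433 and 568 under the scrambled AMO, and 636 and 527 under the U1 AMO.

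By distance, the upstream excess peaked at 5 to 10 kb. Summed over all anchors, same-strand reads under the U1 AMO were 0.929 times the untreated mean within 1 kb upstream, 0.989 at 1 to 2 kb, 1.22 at 2 to 5 kb, 1.34 at 5 to 10 kb, 1.23 at 10 to 20 kb and 1.10 at 20 to 50 kb. Both U1 AMO libraries were above both untreated libraries in each bin from 2 kb on. The scrambled AMO ratios in those bins were 1.09, 1.08, 1.02 and 1.001. On the downstream side the U1 AMO ratios were 0.898, 0.946, 0.974, 1.50, 1.12 and 1.06 from near to far. Both U1 AMO libraries were above both untreated libraries there too, in each downstream bin from 5 kb on. The value of 1.50 at 5 to 10 kb rested on 1 anchor, chr8:96697429-96697498 (plus), which gave 2531 of the 3406 CPM of difference, and without it the ratio was 1.15. The scrambled AMO ratio there was 1.31, and 1.09 without that anchor. Without the anchor of largest difference in its bin, the upstream ratio at 5 to 10 kb was 1.31. On the opposite strand upstream, U1 AMO reads were 1.27 times the untreated ones at 2 to 5 kb, beside 1.20 under the scrambled AMO. All exact permutation p were 0.33 or above, and those adjusted over the bins of a strand 0.4 or above.

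**Figure D4:**
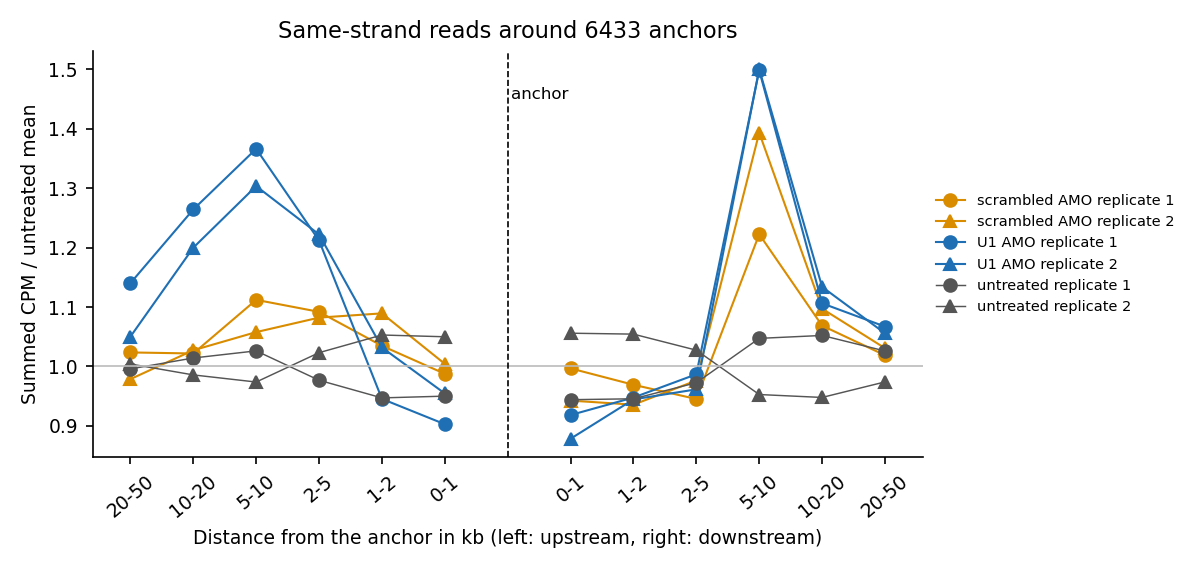
Same-strand CPM summed over 6433 anchors in each distance bin, divided by the untreated mean, for each library; the horizontal axis is distance from the anchor in kb, upstream to the left, and circles and triangles are replicates 1 and 2. The U1 AMO libraries rise above all others from 2 to 50 kb upstream and also from 5 to 50 kb downstream. The downstream peak at 5 to 10 kb falls from 1.50 to 1.15 without 1 anchor.

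Between ends close to each other, no shift larger than the spread between libraries was found. In 3385 tandem pairs, neighbouring same-strand clusters 50 to 3000 nt apart with at least 5 CPM each, the median share of the upstream end was 47.1% and 45.9% in untreated cells, 46.9% and 48.6% under the scrambled AMO, and 46.3% and 48.3% under the U1 AMO. The groups overlapped, and the difference of 0.81 percentage points (exact permutation p = 0.667) turned to -0.24 without U1 AMO replicate 2. Reads with AATAAA or ATTAAA made up 87.8% ± 0.121 in untreated cells and 87.8% ± 0.501 under the U1 AMO (SD, n = 2; exact permutation p = 1). Within clusters of at least 20 CPM, the most used cut position was the same in both untreated libraries at 91.5% of 5113 clusters and in both U1 AMO libraries at 92.4%. Across the groups it was the same at 90.3% to 92.7%.

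The lowered clusters stood high in untreated cells, and the scrambled AMO libraries stood low at them too. A call as lower needs untreated reads to fall from, so the high untreated level is partly fixed by the call. Both comparisons share the untreated libraries, so a high untreated value lowers both fold changes. The 404 lowered clusters had medians of 21.9 and 28.5 CPM untreated, 8.75 and 7.91 under the scrambled AMO, and 6.32 and 6.56 under the U1 AMO. Over all tested the untreated medians were 0.389 and 0.430 CPM. The median fall of the lowered clusters was 4.15-fold, and their median log2 fold change was -2.04 under the U1 AMO and -1.65 under the scrambled AMO. AATAAA stood at 58.4% and ATTAAA at 23.8%, and the median width was 25.5 nt. They took 2.17% and 2.65% of untreated reads, 0.922% and 0.817% under the scrambled AMO and 0.719% and 0.690% under the U1 AMO. The falls depended on the libraries more than the rises: they numbered 1021 without untreated replicate 1, 129 without untreated replicate 2, 150 and 210 without scrambled AMO replicates 1 and 2, 25 without U1 AMO replicate 1 and 12 without U1 AMO replicate 2. These numbers are of all falls called in each fit, and in no fit were all of them among the 404. In the fit of the 4 compared libraries alone 30 remained of the 404.

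The largest fall of a cluster averaging 20 CPM or more was at chr11:87369318-87369328 (plus), with 41.4 and 60.5 CPM untreated, 5.55 and 7.47 under the scrambled AMO, and 5.33 and 6.54 under the U1 AMO. The AMO groups overlapped each other and lay far below the untreated libraries, and the pooled level fell 8.45-fold under the U1 AMO (log2 fold change -3.12 ± 0.39 SE, edgeR adjusted p = 0.0176). At chr8:47082240-47082272 (minus) the levels were 67.2 and 72.9, 12.0 and 9.57, and 12.3 and 9.25 CPM in the same order, with close replicates in every group. At chr7:19476219-19476242 (minus) they were 42.9 and 31.5, 9.46 and 9.45, and 5.27 and 6.23 CPM. Here the U1 AMO libraries were below the scrambled AMO ones.

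At chr8:96662925-96662941 (plus) an end with 53.2 and 36.2 CPM untreated had 5.55 and 11.9 under the scrambled AMO and 4.57 and 8.25 under the U1 AMO (log2 fold change -2.83 ± 0.58 SE, edgeR adjusted p = 0.0442). The end 34.5 kb downstream of it was the anchor of the downstream peak described above, and stood the other way, at 1871 and 1744 CPM untreated, 3779 and 6299 under the scrambled AMO, and 6374 and 10401 under the U1 AMO. Its log2 fold change was 2.18 (edgeR adjusted p = 0.0539). The remaining 6 of the 10 largest falls had log2 fold changes from -3.05 to -2.64. At 3 of these 10 the untreated replicates differed by over 2-fold, as at chr7:25711600-25711617 (plus), with 55.4 and 168 CPM.

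**Figure D5:**
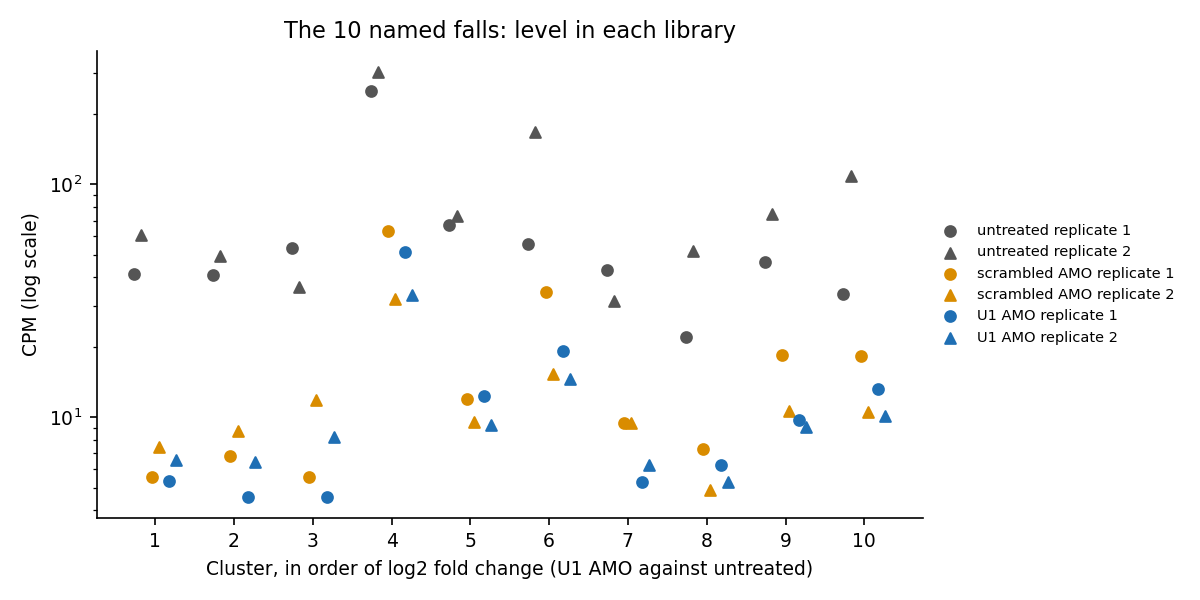
CPM (log scale) of the 10 largest falls in each library, in order of log2 fold change; circles are replicate 1 and triangles replicate 2. The untreated libraries lie above both AMO groups at each cluster, and the scrambled AMO libraries lie close to the U1 AMO libraries.

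The most abundant changed clusters had smaller folds than the 10 largest rises and falls. At each of them the scrambled AMO libraries stood on the same side of the untreated ones as the U1 AMO libraries. At the 10 largest rises the scrambled AMO libraries had stayed at or under 0.335 CPM. Their fitted log2 fold changes against untreated were positive there too, from 1.12 to 6.03, with both groups near 0. Among falls, chr6:122677820-122677882 (minus) had 1404 and 2412 CPM untreated, 664 and 396 under the scrambled AMO, and 580 and 307 under the U1 AMO (log2 fold change -2.16 ± 0.44 SE, edgeR adjusted p = 0.0441). At chr7:149761391-149761448 (minus) the scrambled AMO libraries were lowest, with 725 and 352, 112 and 83.9, and 156 and 105 CPM in the same order. At chr6:28376595-28376618 (plus) the levels stepped down from 490 and 477 to 204 and 213 and to 115 and 165 CPM. The falls at chr2:71279537-71279686 (plus) and chr19:44381335-44381366 (plus) had log2 fold changes of -1.61 and -1.88.

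Among abundant rises, chr9:59527168-59527197 (plus) had 284 and 177 CPM untreated, 612 and 683 under the scrambled AMO, and 982 and 758 under the U1 AMO (log2 fold change 1.84 ± 0.38 SE, edgeR adjusted p = 0.0453). At chr1:155756776-155756807 (plus) the levels were 98.6 and 54.5, 358 and 382, and 504 and 467 CPM. The mitochondrial end chrM:2587-2680 (plus) had 128 and 90.9, 784 and 340, and 797 and 541 CPM, with overlapping AMO groups. At chr5:150419409-150419434 (minus) and chr9:108242646-108242683 (plus) the log2 fold changes were 2.08 and 1.68, beside 1.99 and 1.51 under the scrambled AMO. None of these 5 rises, and 6 of the 15 named falls, kept the call in the fit of the 4 compared libraries alone, and none of the 20 with the replicate block. None of these 5 rises kept its call without U1 AMO replicate 2, and none of the 15 named falls did; without U1 AMO replicate 1, 5 of the 15 falls kept theirs. Without untreated replicates 1 and 2, 14 and 8 of the 15 falls kept their call, and without scrambled AMO replicates 1 and 2, 11 and 14. The rises on chromosome 9 also lost theirs without untreated replicate 2, scrambled AMO replicate 1 or U1 AMO replicate 1, and those on chromosomes 5 and M without untreated replicate 2.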

How the data were processed

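Polyadenylated RNA of V6.5 cells was sequenced from its 3′ ends in 6 libraries, 2 per group, after RNase T1 fragmentation, reverse transcription, gel selection, circularisation and PCR, per the labels' protocols. The deposited files give whole-number read counts per stranded position, not normalized, 1 file per library. The submitters' processing notes name cutadapt, Bowtie and the build mm9, and the sources used here give neither versions nor the filter behind the positions. Each listed position carried a hexamer, so ends without one were not analysed here. A further deposited value from 0 to 10, for which no meaning was found in the labels or headers, was not used.

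From these counts, 2341170 positions were joined into 931826 clusters. The test was edgeR 4.0.16 (quasi-likelihood, TMM, filterByExpr, all 6 libraries in 1 fit of 3 groups) in R 4.3.3, with Benjamini-Hochberg adjustment over all 80049 clusters kept, or over all windows. The spread between clusters' replicates was thus shared by the 3 groups (common dispersion 0.329). DESeq2 1.42.0 was an alternative. Other values came from Python 3.11.15, pandas 2.3.3, numpy 2.4.6, scipy 1.17.1 and matplotlib 3.10.9. The fit was tested on simulated data. Exact permutation tests compared 2 libraries with 2. For median folds the untreated group was held at no fewer than 3 counts, and intervals of ratios are 95% counting intervals. Each SE of an edgeR log2 fold change was worked back from the quasi-likelihood test. It is the size of the change over the square root of the F statistic, and not a directly estimated standard error.

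Clusters named are the 10 calls highest and the 10 lowest in log2 fold change that averaged 20 CPM or more in the 4 libraries, and the 5 most abundant rises and falls. Windows named are the 5 highest among called upstream windows of at least 20 CPM with the U1 AMO. The libraries, lists and rules were chosen with earlier results of these data known. Lists of genes and cell type markers were not used, because symbols were not paired with positions of this build. Read names tie the replicate number to a shared run for both AMO groups but not for the untreated libraries, each of which had its own run. Replicate numbers were therefore not taken as pairs of U1 AMO and untreated libraries, and the deviations of same-numbered libraries correlated at r = -0.361 between U1 AMO and untreated, -0.416 between scrambled AMO and untreated and 0.803 between both AMO groups, over 29447 clusters. Alternatives were another normalization, no filter, each library left out, the 4 libraries alone, a replicate block, other limits for joining, anchors and windows, and, added after seeing the data, library size alone, no chromosome M, a crossed block and bins without 1 anchor.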

Additional observations from a re-analysis of the deposited data

How the results depend on the processing

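U1 AMO against untreated gave 3916 changed clusters. They became 10077 with DESeq2, 7175 with no filter on low counts and 1393 in the 4 libraries alone, and leaving out 1 library gave 1015 to 8760. DESeq2 called 3411 of the 3512 rises and all 404 falls again, and the unfiltered fit 3458 and 259. With the replicate block no cluster was called by edgeR (16724 at an unadjusted p under 0.05; DESeq2 without a block 10077), and the adjusted p of the 30 named clusters lay between 0.0506 and 0.116, with no change of direction. With the crossed block, added because same-numbered U1 AMO and untreated libraries deviated in opposite ways, 9036 clusters, 2193 upstream and 984 downstream windows were called. Scrambled AMO against untreated went from 0 clusters to 2181 with DESeq2 and 1279 without the filter, and 0 to 22 with a library left out.

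The 1783 changed upstream windows became 1626 with the replicate block, and 1081 to 2290 with a library left out. The 415 downstream windows became 701 with DESeq2 and 213 with the replicate block, and 119 to 753 with a library left out. The cause of these shifts was not tested. The share of the upstream end in tandem pairs, 0.808 points higher, ran from -0.236 to 1.85 points with a library left out. Reads 1 to 2 kb upstream of anchors, at a ratio of 0.989, were at 1.003 with anchors of at least 20 CPM and 0.939 to 1.04 with a library left out. Downstream the ratio then ran from 0.897 to 1.0005 at 1 to 2 kb and from 0.948 to 1.002 at 2 to 5 kb. The difference in reads with AATAAA or ATTAAA, 0.0170 points, was -0.0216 over positions and ranged from -0.337 to 0.371 with a library left out. In 2412 of the 3512 raised clusters the untreated libraries, of 38569397 and 60473882 reads, held 3 reads or fewer in all, so untreated depth bounds the size of rise that can be given there.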
